A study of Rattus norvegicus with 8 samples.

Results

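Glycolysis splits glucose into pyruvate, and in muscle it draws most of its fuel from stored glycogen. Each step has its own enzyme, and most enzymes come as isoforms from separate genes, 1 of which is often the form of adult muscle. Fast fibres are rich in these enzymes, and slow fibres rely more on mitochondria and carry the heart form of lactate dehydrogenase, Ldhb. The genes described here are 37 listed genes of glycolysis and glycogen metabolism, followed in thigh muscle of 4 rats given 150 ppm of SI compound 197 in the feed for 28 days and of 4 control rats on ordinary chow. Every probe of the array whose annotated symbol is 1 of these genes was taken, which gave 34 of 22523 probes for 33 genes. Only Aldoa had 2 probes. No probe was named for Hk1, Pgam1, Gys1 or Ppp1r3c, and these genes were not analysed here.

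All 8 rats were Wistar Han, an outbred stock, and the labels name no transgene or deletion. The compound is known here by its code alone. RNA of the whole muscle was measured on 1-colour Illumina beadchips, 1 array for each of 8 samples, so fewer fibres of a type and less RNA per fibre cannot be told apart. Nothing in the labels ties an array to a cage, slide or scan. Levels below are log2 intensities after background correction and quantile normalization, and a change is the compound 197 mean minus the control mean. Testing was limited to probes called above background (detection p under 0.05) on 4 or more arrays, which kept 33 of the 34 member probes and 9873 probes in all. The exception was Pfkfb2, a bifunctional enzyme best known from heart, whose probe was not detected on any array. Of the 33 tested probes, 30 were above background on all 8 arrays.

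Between 9743 and 10498 probes were above background on the compound 197 arrays, against 8310 to 9507 on the control arrays. Treated arrays had a lowest raw intensity of 51.1 to 55.5, and control arrays of 59.3 to 61.6. All 12 skeletal muscle marker genes with a named probe were tested, and 3 of them rose. Those 3 are Myh4 (3.63 ± 0.26, SE), Myh2 (4.36 ± 0.33) and Tnni2 (1.48 ± 0.12), which encode the myosin heavy chains of type IIb and IIa fibres and the fast troponin I. Of 7 fast fibre markers 2 rose, Myh4 and Tnni2. These counts stand beside 16.3% of all tested probes. With median scaling, where 23.2% of all tested probes were higher, they were 7 of the 12 muscle markers and 6 of the 7 fast fibre markers. The summed intensity of the fast fibre markers was 245064 to 266751 in treated muscle, above the 210468 to 229486 of control muscle. That sum includes Myh4 and Tnni2, and the rest of the list changed by -0.29 to 0.12 and did not pass. Those other probes were bright, with group means of 14.95 to 15.58, near the top of the arrays' range. Of 5 adipocyte markers 1 rose, Fabp4 by 0.88 ± 0.21 (limma adjusted p = 0.00988). The others did not pass and differed in sign: Adipoq 0.78 ± 0.37, Cfd 0.16 ± 0.84, Lipe -0.67 ± 0.32 and Pnpla2 -0.49 ± 0.22. The summed intensity of the 5 was 4643 to 14440 in treated and 4265 to 6998 in control muscle. The adipocyte hormones Lep and Retn were not detected on any array, nor were Cdh5 of endothelium, Itgam of myeloid cells and Pax7 of satellite cells. No tested marker passed among 5 of endothelium, 1 of leukocytes, 3 of red cells, 6 of fibroblasts, 3 of nerve, 1 of smooth muscle and 1 of satellite cells. The part of fibre type, fat and the array floor in the results below was not tested.

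Of the 33 glycolysis and glycogen probes, 5 rose, 4 fell and 24 did not pass limma's test at an adjusted p under 0.05. In either direction 40.5% of all tested probes passed. The rises were 15.2% of the tested members beside 16.3% of all tested probes, and the falls were 12.1% beside 24.2% of all tested probes. The median change of the members was -0.06, against -0.18 over all tested probes. The rises were those of Eno3, Eno1, Gyg1, Gapdh and Gpi, and all 4 compound 197 arrays lay above all 4 control arrays for each of them. Separation of that kind was found for 16.2% of all tested probes, and the reverse, all treated arrays below all controls, for 23.8%. The falls were those of Gbe1, Aldoc, Gpd2 and Pfkm, none of them as large as 2-fold (2.57% of all tested probes passed and fell that far). Of the rises, 2 were fitted at 2-fold or more, those of Eno3 and Eno1, beside 8.83% of all tested probes. Of these 2, only Eno3 has a measured size, since Eno1 was not above background on any control array. Each of these 9 genes was read by a single probe, so none of the calls has a second probe to set beside it.

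The 5 rises held with every scaling between arrays that was tried, and the 4 falls did not. With median scaling 11 member probes were higher and 0 lower, beside 23.2% and 1.91% of all tested probes, and the median change of all tested probes was 0.31. With cyclic loess 8 were higher and 0 lower, beside 19.4% and 8.02% of all tested probes. Measured relative to the median change of all tested probes, 7 were higher and 0 lower, beside 19.7% and 8.53%. Gpd2 and Pfkm were above 0 with median scaling, and the median change of the members moved to 0.46 with it and to 0.13 with cyclic loess.

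**Figure D1:**
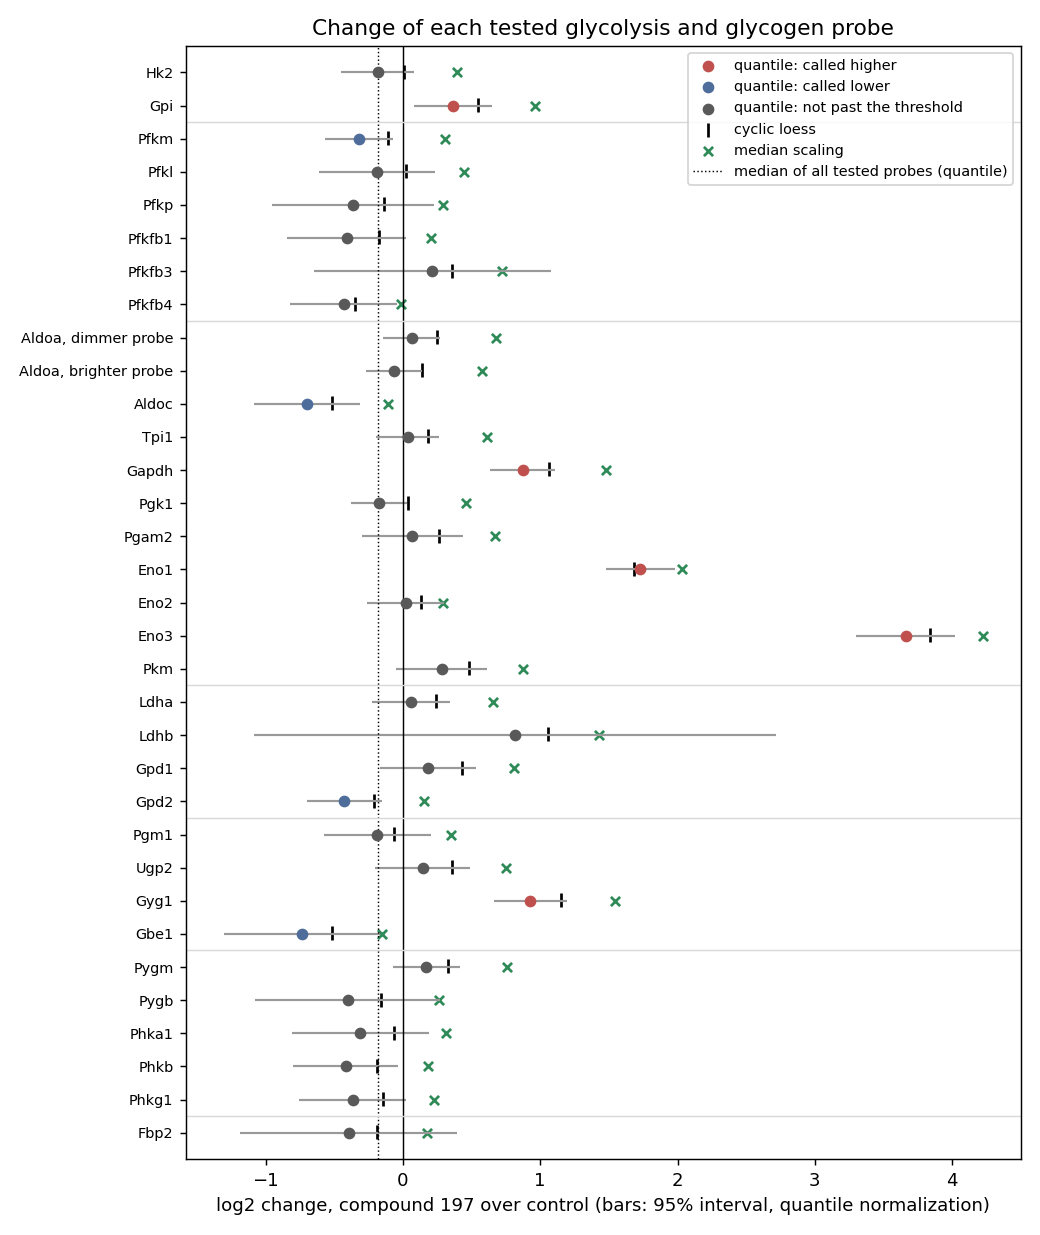
Log2 change of each tested glycolysis and glycogen probe (rows, in order of the pathway), compound 197 over control, with quantile normalization (dots with 95% intervals, red called higher, blue called lower, grey not past the threshold), cyclic loess (ticks) and median scaling (crosses). Eno3 lies at 3.66, the point of Eno1 is a fitted value against control arrays not above background and not a measured size, the others lie between -0.73 and 0.93, and median scaling moves every probe to the right.

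Enolase gave the largest change of the pathway. It is encoded by Eno3 (the beta form of adult muscle), Eno1 (the alpha form of most tissues) and Eno2 (the gamma form of neurons). The level of Eno3 was 14.10, 14.11, 14.08 and 14.04 on the compound 197 arrays, against 10.56, 10.67, 9.93 and 10.54 on the control arrays. The treated arrays were nearly alike and stood far above every control. That is a rise of 3.66 ± 0.16 (SE), or 12.6-fold, with an adjusted p of 2.16e-07 from limma. In raw intensity the same probe read 16834 to 19414 in treated muscle and 793 to 1737 in control muscle.

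For Eno1 the levels were 6.71, 6.88, 6.43 and 6.67 in treated muscle, against 4.96, 4.95, 4.91 and 4.97 in control muscle. Its probe was above background on all 4 compound 197 arrays and on no control array, so the size of the rise is only bounded. The probe met the detection filter through the treated arrays alone, which favoured a rise in advance. Its limma adjusted p of 3.04e-06 is therefore no separate support for the direction. Eno1 was at least 2.22-fold higher in treated muscle. For that bound each control array stands at its detection floor (the dimmest detected probe) or at the Eno1 signal if that is higher. Without background correction the same bound was 1.55-fold. In raw intensity the Eno1 probe read 166 to 193 in treated muscle and 81 to 89 in control muscle, far below the probe of Eno3. Whether the Eno1 probe also picks up Eno3 RNA was not tested, as no probe sequences were at hand. Eno2 was above background on 4 compound 197 arrays and 2 control arrays, and it had a change of 0.02 ± 0.12 (95% interval -0.26 to 0.30). Eno3 exceeded Eno1 by 1.93 more in treated than in control muscle (exact permutation p = 0.0286, two-sided, the smallest that 4 against 4 allows, and 0.171 after Benjamini-Hochberg adjustment over 6 isoform pairs). Since Eno1 has no measured control level, that difference is not an estimate of how unequal the rises were.

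**Figure D2:**
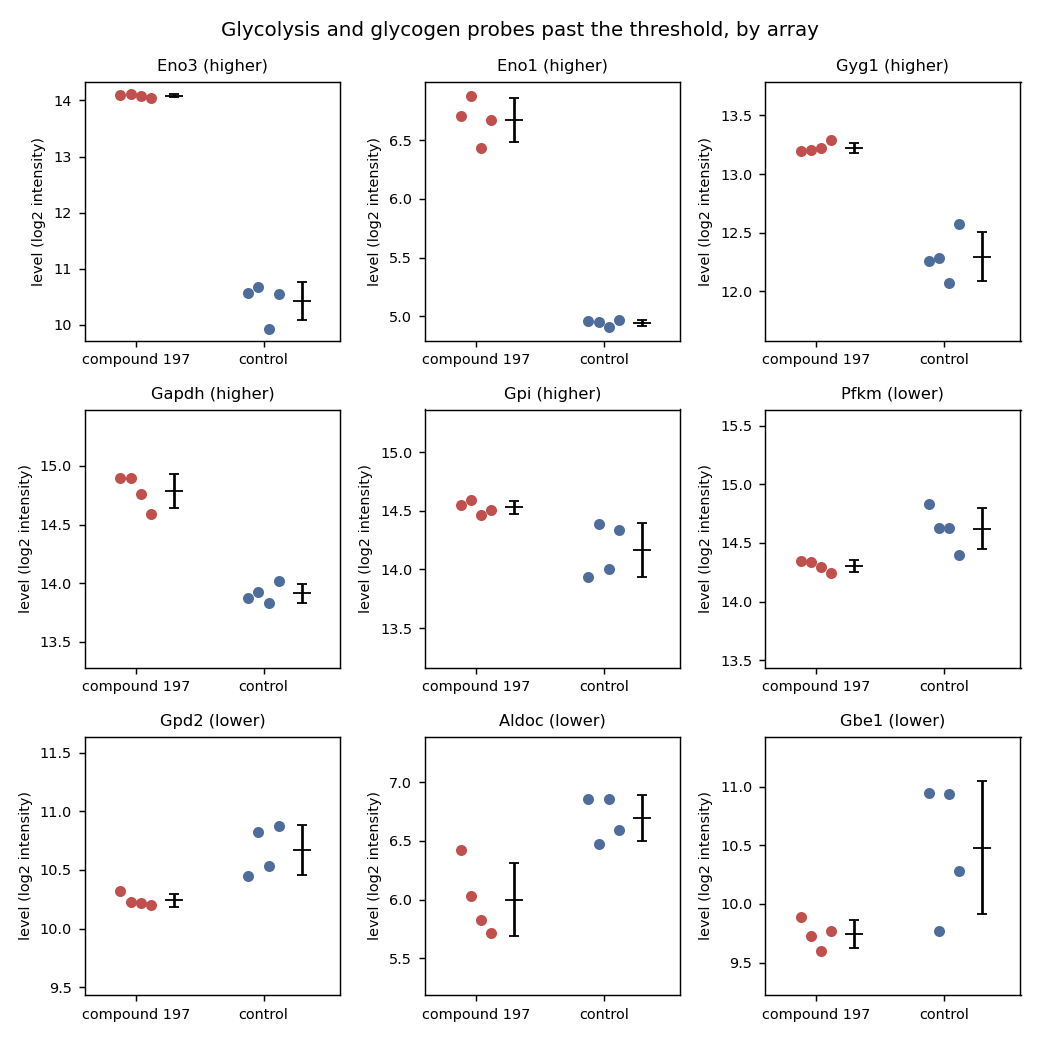
Log2 intensity on each array (points) of the 9 glycolysis and glycogen probes past the threshold, compound 197 left and control right, with mean and SD of 4 arrays beside them. Each axis has its own range. For 8 of the 9 probes the groups do not overlap, and for Gbe1 control replicate 2, at 9.77, lies among the treated arrays. Over all tested probes, 16.2% had every treated array above every control and 23.8% had every treated array below.

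The promoters shown here are those of the 5 members called higher with quantile normalization. Each window holds the 250 bases before the annotated start, from RefSeq on the GRCr8 assembly. They lie at chr10:55868936-55869185 and chr5:166002617-166002866 on the plus strand for Eno3 and Eno1. The windows of Gyg1, Gapdh and Gpi lie at chr2:104582778-104583027, chr4:159652468-159652717 and chr1:95993262-95993511 on the minus strand. Eno1 has 2 starts in the table, and the one listed first is printed. Capitals mark 4 motifs searched on both strands: the hypoxia response core ACGTG, the GC box GGGCGG, the E-box CAGCTG of myogenic factors and the TATA box TATAAA.
Eno3: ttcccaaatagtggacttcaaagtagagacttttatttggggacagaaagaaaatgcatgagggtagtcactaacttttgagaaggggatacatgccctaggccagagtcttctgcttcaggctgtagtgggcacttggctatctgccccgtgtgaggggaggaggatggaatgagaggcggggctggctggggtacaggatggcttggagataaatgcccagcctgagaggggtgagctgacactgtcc
Eno1: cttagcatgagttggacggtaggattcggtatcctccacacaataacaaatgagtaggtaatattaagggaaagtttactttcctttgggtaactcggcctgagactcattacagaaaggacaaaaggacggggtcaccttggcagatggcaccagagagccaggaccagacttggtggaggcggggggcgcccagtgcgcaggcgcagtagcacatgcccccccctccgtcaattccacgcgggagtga
Gyg1: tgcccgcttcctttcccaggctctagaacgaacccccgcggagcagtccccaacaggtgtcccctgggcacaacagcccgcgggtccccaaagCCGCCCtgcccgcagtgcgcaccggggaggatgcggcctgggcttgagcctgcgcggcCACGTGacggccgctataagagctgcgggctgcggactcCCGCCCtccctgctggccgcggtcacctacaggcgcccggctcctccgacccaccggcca
Gapdh: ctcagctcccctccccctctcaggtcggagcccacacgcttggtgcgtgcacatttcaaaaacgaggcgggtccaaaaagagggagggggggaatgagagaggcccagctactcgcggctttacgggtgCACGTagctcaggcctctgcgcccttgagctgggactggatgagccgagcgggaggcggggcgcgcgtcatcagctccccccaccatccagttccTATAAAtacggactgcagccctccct
Gpi: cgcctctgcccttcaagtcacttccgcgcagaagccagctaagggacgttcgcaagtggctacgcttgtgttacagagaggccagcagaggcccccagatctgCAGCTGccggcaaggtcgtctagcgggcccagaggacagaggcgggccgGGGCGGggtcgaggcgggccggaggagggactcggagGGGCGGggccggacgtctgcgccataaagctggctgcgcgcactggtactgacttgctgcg

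No motif matched in the Eno3 or the Eno1 window. Gyg1 has 2 GC boxes and 1 palindrome, CACGTG, that reads as ACGTG on both strands. Gapdh has 1 match to ACGTG and a TATA box, and Gpi has 2 GC boxes and 1 CAGCTG. Among the 34 listed genes with a promoter in the table, 41.2% held ACGTG and 55.9% the GC box, against 16.9% and 32.4% of 27457 promoters of the same length. CAGCTG was found in 14.7% against 11.9%, and TATAAA in 8.82% against 13.1%. The member windows were also richer in G and C, with a median of 59.2% against 52.0%. These matches describe letters and not bound sites. The table has no entry for Fbp2, Gpd1 and Pgk1.

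Glucose enters the pathway through hexokinase, of which Hk2 is the insulin-responsive form of muscle, and Gpi then turns glucose 6-phosphate into fructose 6-phosphate. Gpi stood at 14.55, 14.59, 14.46 and 14.51 in treated muscle, against 13.94, 14.39, 14.00 and 14.34 in control muscle. The lowest treated array was just above the highest control, and the rise was 0.36 ± 0.13, or 1.29-fold (adjusted p = 0.0458). It passed without control replicate 2 or 4, and on leaving out any of the other 6 arrays the adjusted p lay between 0.0720 and 0.104. Hk2 was 9.07, 8.74, 9.18 and 9.03 in treated muscle and 9.14, 9.28, 9.07 and 9.26 in controls, groups that overlapped, with a change of -0.18 ± 0.12 (95% interval -0.45 to 0.08).

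Phosphofructokinase commits sugar to glycolysis, and its subunit genes Pfkm, Pfkl and Pfkp are named for muscle, liver and platelets. Pfkm levels were 14.35, 14.34, 14.29 and 14.24 in treated muscle, against 14.83, 14.63, 14.63 and 14.40 in control muscle. All treated arrays lay below all controls by a narrow margin. The fall was 0.32 ± 0.11 on the log2 scale (adjusted p = 0.0457). It was lost on leaving out any array but control replicate 4, with an adjusted p of 0.0728 to 0.104, and with median scaling the change was 0.31. Pfkl had a change of -0.19 ± 0.19 and Pfkp of -0.37 ± 0.26, and in both the groups overlapped. Pfkp reached 7.38 on compound 197 replicate 4, while the other treated arrays read 6.15, 6.18 and 6.81. Without that array its change was -0.61 (adjusted p = 0.0386). Pfkm did not change differently from Pfkp (difference 0.05, exact permutation p = 0.886) or Pfkl (-0.13, exact p = 0.429) to a detectable degree.

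The Pfkfb genes encode bifunctional enzymes that make and break fructose 2,6-bisphosphate, the strongest activator of phosphofructokinase. No tested member of this family passed. Pfkfb1, the form of liver and muscle, was 11.29 to 11.88 in treated muscle, against 11.52 to 12.27 in control muscle (-0.41 ± 0.19, adjusted p = 0.116). Control replicate 2 was the control that overlapped the treated arrays, and without it the change was -0.57 (adjusted p = 0.0270). Pfkfb4 had a change of -0.43 ± 0.17 (adjusted p = 0.0747), and it passed without compound 197 replicate 2 (0.0359) or control replicate 4 (0.0412). Its levels were near background, and the change was -0.23 without background correction and -0.27 in the deposited normalized table. Pfkfb3, the inducible form, was 5.68 to 6.54 in treated muscle and 5.04 to 7.06 in controls, with control replicate 4 highest and control replicate 1 lowest (0.22 ± 0.38). Fbp2, the muscle bisphosphatase that runs the step backwards, had a change of -0.39 ± 0.35. It read 11.30 on compound 197 replicate 4 and 11.71 on control replicate 4, while the other 6 arrays lay between 10.11 and 10.77.

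In the later steps, from aldolase to pyruvate kinase, 3 of 11 probes rose, 1 fell and 7 did not pass. These are 27.3% higher and 9.09% lower, beside 16.3% and 24.2% of all tested probes. Among the 3 rises is that of Eno1, whose probe met the detection filter through the treated arrays alone. Gapdh, which makes the pathway's NADH and often serves as a loading control, rose. Its levels were 14.90, 14.90, 14.76 and 14.59 in treated muscle, against 13.88, 13.93, 13.83 and 14.02 in control muscle. The groups were well apart, and the rise of 0.87 ± 0.11 is 1.83-fold (adjusted p = 0.000236). Its rise passed in each of the 8 fits that left out 1 array, with changes of 0.83 to 0.94.

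Aldoa, the aldolase of muscle, was the gene with 2 probes, both designed to the transcript record NM_012495. The brighter read 15.39, 15.52, 15.53 and 15.35 in treated muscle, against 15.50, 15.53, 15.53 and 15.48 in controls. The other read 15.42, 15.35, 15.29 and 15.38 in treated muscle and 15.29, 15.42, 15.24 and 15.24 in controls. Their changes were -0.06 ± 0.089 and 0.06 ± 0.090, and both 95% intervals lay within -0.27 to 0.27. With median scaling both were called higher, at 0.58 and 0.68. These probes and that of Tpi1 were near the top of the arrays' range: Tpi1 read 55768 on compound 197 replicate 1, where the highest raw intensity of any probe was 60773. Aldoc, the aldolase of brain, was 6.43, 6.03, 5.82 and 5.72 in treated muscle, against 6.86, 6.47, 6.86 and 6.60 in control muscle. The groups were separate by a narrow margin and the fall was 0.70 ± 0.17, or 1.62-fold (adjusted p = 0.0114). It passed on leaving out any 1 array, but not relative to the median change (-0.52, adjusted p = 0.0507), with cyclic loess (-0.52, adjusted p = 0.0836) or with median scaling (-0.11). Its size rests on the background correction: the change was -0.39 without it and -0.43 in the deposited normalized table, where the call was kept. Aldoa and Aldoc differed in change by 0.63 (exact permutation p = 0.0571).

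Pgk1, which makes the first ATP of the pathway, was 14.72, 14.60, 14.60 and 14.63 in treated muscle, against 14.76, 14.94, 14.78 and 14.78 in controls. All treated arrays were below all controls, as for 23.8% of all tested probes. The change of -0.18 ± 0.091 did not pass (adjusted p = 0.152) and equalled the median change of all tested probes to 2 decimals. Tpi1, the triose phosphate isomerase, had a change of 0.04 ± 0.10 and was called higher with median scaling (0.62, adjusted p = 0.0309). Pgam2, the muscle phosphoglycerate mutase, had a change of 0.07 ± 0.16. Pkm, the pyruvate kinase, was 12.90, 12.93, 12.97 and 12.89 in treated muscle, against 12.29, 13.02, 12.64 and 12.62 in controls. Control replicate 2 was the highest of all 8 arrays, and the change was 0.28 ± 0.15 (adjusted p = 0.152). Without that array Pkm passed, at 0.41 (adjusted p = 0.0253), as it did with median scaling (0.87) and cyclic loess (0.48).

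Lactate dehydrogenase uses the NADH of glycolysis and returns NAD+, with Ldha as the muscle subunit and Ldhb as the subunit of heart and slow fibres. Ldha was 14.68, 14.55, 14.78 and 14.46 in treated muscle, against 14.27, 14.72, 14.59 and 14.65 in controls (0.06 ± 0.13, 95% interval -0.23 to 0.35), and it was called higher with median scaling (0.66, adjusted p = 0.0402). Ldhb was the most variable member. It read 10.64, 10.49, 10.51 and 11.80 in treated muscle, against 11.17, 7.23, 11.50 and 10.27 in control muscle. Its change was 0.82 ± 0.84 (adjusted p = 0.462), and -0.12 without control replicate 2.

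The slow fibre transcripts varied over the same arrays. Myh7, the slow myosin heavy chain, was 9.08, 10.21, 11.42 and 14.97 in treated muscle, against 14.65, 6.24, 14.62 and 10.79 in control muscle. Tnnt1, the slow troponin T, was 6.15, 7.07, 7.60 and 11.87 in treated muscle, against 10.89, 5.58, 10.66 and 7.19 in controls. The highest 3 arrays for Ldhb, which were compound 197 replicate 4 and control replicates 1 and 3, were also the highest 3 for Myh7 and Tnnt1, and control replicate 2 was the lowest for each. Of 10 tested markers of slow and oxidative fibres, 1 rose (Myh2) and 1 fell, beside 16.3% and 24.2% of all tested probes. The other 8 did not pass, Myh7 (-0.15 ± 1.94), Tnnt1 (-0.41 ± 1.49) and Myl3 (2.13 ± 1.47) among them. The fall was that of Casq2, the calsequestrin of heart and slow fibres, at -0.65 ± 0.21 (limma adjusted p = 0.0355), and with cyclic loess it did not pass (-0.47, adjusted p = 0.120). The arrays did not fall in this order for every marker. Compound 197 replicate 2, at 14.38, was among the highest 3 for myoglobin (Mb), and at 11.78 it was the lowest for Atp2a2, the calcium pump of slow fibres. The summed intensity of the list was 19965 to 106334 in treated and 7211 to 82146 in control muscle.

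**Figure D3:**
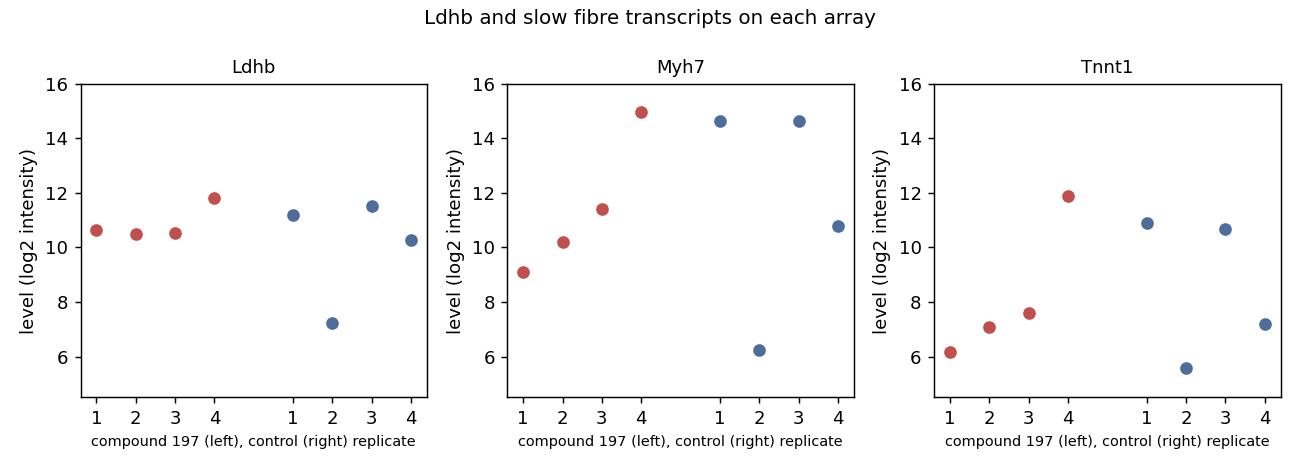
Log2 intensity of Ldhb and of the slow fibre genes Myh7 and Tnnt1 on each array, compound 197 replicates left (red) and control replicates right (blue). Compound 197 replicate 4 and control replicates 1 and 3 are high in all 3 panels, and control replicate 2 is lowest in each.

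Gpd1 and Gpd2 form the glycerol phosphate shuttle, which carries electrons from cytosolic NADH to mitochondria. Gpd2, the mitochondrial enzyme, was 10.32, 10.22, 10.22 and 10.20 in treated muscle, against 10.45, 10.83, 10.53 and 10.88 in control muscle. No treated array reached a control, and Gpd2 fell by 0.43 ± 0.12 on the log2 scale (adjusted p = 0.0209). The call was lost without compound 197 replicate 4 (adjusted p = 0.0531), and the change was 0.15 with median scaling and -0.21 with cyclic loess. Gpd1, the cytosolic enzyme, was 12.33, 12.53, 12.16 and 12.20 in treated muscle, against 11.96, 12.42, 11.82 and 12.27 in controls (0.18 ± 0.15, 95% interval -0.16 to 0.53). It was called higher with cyclic loess (0.43, adjusted p = 0.0494) and was at 0.81 without a call with median scaling (adjusted p = 0.0564).

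Glycogen is built on glycogenin, the product of Gyg1, which primes each particle. Gyg1 was 13.19, 13.20, 13.22 and 13.29 in treated muscle, against 12.26, 12.28, 12.08 and 12.57 in control muscle. The groups stood clearly apart, with a rise of 0.93 ± 0.12, or 1.90-fold (adjusted p = 0.000322), and leaving out any 1 array kept it between 0.85 and 1.02. Gbe1, the branching enzyme, went the other way, at 9.88, 9.73, 9.60 and 9.77 in treated muscle and 10.94, 9.77, 10.94 and 10.28 in controls. Control replicate 2 fell among the treated arrays, and the change was -0.73 ± 0.25 (adjusted p = 0.0437). That call held without control replicate 2 (-0.97, adjusted p = 0.00426) and was lost on leaving out any other array, with an adjusted p of 0.0554 to 0.103. Among the controls Gbe1 was highest on replicates 1 and 3, which were also highest for Myh7. The treated arrays did not follow this order. Replicate 4, with the highest Myh7 (14.97), read 9.77 for Gbe1, and replicate 1, with the lowest treated Myh7 (9.08), read 9.88. Pgm1, which links glucose 6-phosphate to glucose 1-phosphate, had a change of -0.19 ± 0.17. Ugp2, which makes the UDP-glucose that glycogen synthase uses, had a change of 0.14 ± 0.15.

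Breakdown of glycogen runs through phosphorylase, Pygm in muscle and Pygb in brain, and through the kinase that switches it on. None of the 5 probes of this step passed, beside 40.5% of all tested probes in either direction. Pygm was 15.32, 15.39, 15.30 and 15.12 in treated muscle, against 15.10, 15.12, 14.94 and 15.28 in controls (0.17 ± 0.11, 95% interval -0.07 to 0.42). It was called higher with median scaling (0.76), with cyclic loess (0.33) and relative to the median change (0.35). Like the probes of Aldoa and Tpi1 it was near the top of the arrays' range, at a raw intensity of 39298 to 46362 in treated muscle. Pygb had a change of -0.40 ± 0.30, and Pygm and Pygb differed in change by 0.57 (exact permutation p = 0.200). The kinase subunits Phka1, Phkb and Phkg1 had changes of -0.31 ± 0.22, -0.42 ± 0.17 and -0.37 ± 0.17, and none passed. With median scaling the same changes were 0.32, 0.18 and 0.22. Phka1, the muscle form of the alpha subunit, was 11.76, 11.66, 11.91 and 11.70 in treated muscle, against 11.57, 12.54, 11.73 and 12.43 in controls. Phkb was 10.74 to 11.16 in treated muscle and 11.15 to 11.78 in controls. For all 3 subunits the highest 2 controls were replicates 2 and 4, the controls lowest for Myh7. The treated arrays did not follow for Phka1 and Phkb, which were highest on replicate 3. Phkb was lowest on replicate 1, the treated array lowest for Myh7, while Phkg1 was highest there. Phkg1, the catalytic subunit of muscle, passed without control replicate 1 (-0.51, adjusted p = 0.0279).

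**Figure D4:**
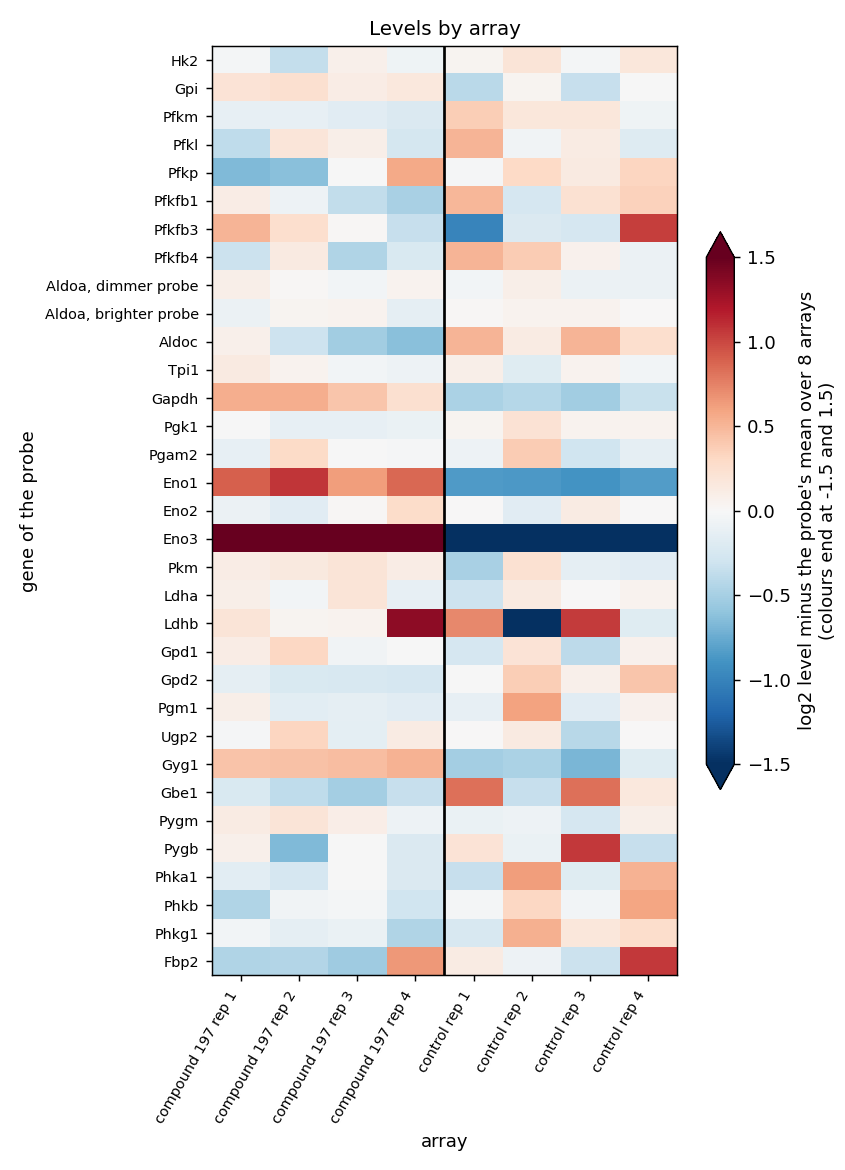
Log2 level of each tested glycolysis and glycogen probe (rows) on each array (columns, compound 197 left of the line, control right), as the difference from the probe's mean over 8 arrays. Colours end at the limits marked on the scale. Eno3, Eno1, Gapdh and Gyg1 split by group, while Ldhb is set apart by control replicate 2, at 7.23.

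The members spread more among the controls, as did the tested probes as a whole. For 26 of 33 probes (78.8%) the SD was larger in control than in treated muscle, against 67.2% of all tested probes. The median SD of the members was 0.16 in treated and 0.24 in control muscle, against 0.16 and 0.22 over all tested probes. Control replicate 2 was the highest control for 14 of the 33 probes, or 42.4%, against 31.6% of all tested probes. Compound 197 replicate 1 was the highest treated array for 39.4% of the members, against 22.0% of all tested probes, and replicate 4 the lowest for 42.4%, against 27.8%.

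Of 8 isoform pairs, 6 could be compared, since Hk1 and Pgam1 have no named probe. The pair of Eno3 and Eno1 was the only pair under 0.05 before adjustment, and 0 pairs passed after it. Eno1 was not above background on any control array, so that pair gives no measured difference. Ldha and Ldhb differed in change by -0.76 (exact permutation p = 0.657), a value that was 0.23 without control replicate 2. For the other pairs no difference in change was detected, and 4 arrays a group leave room for one.

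**Figure D5:**
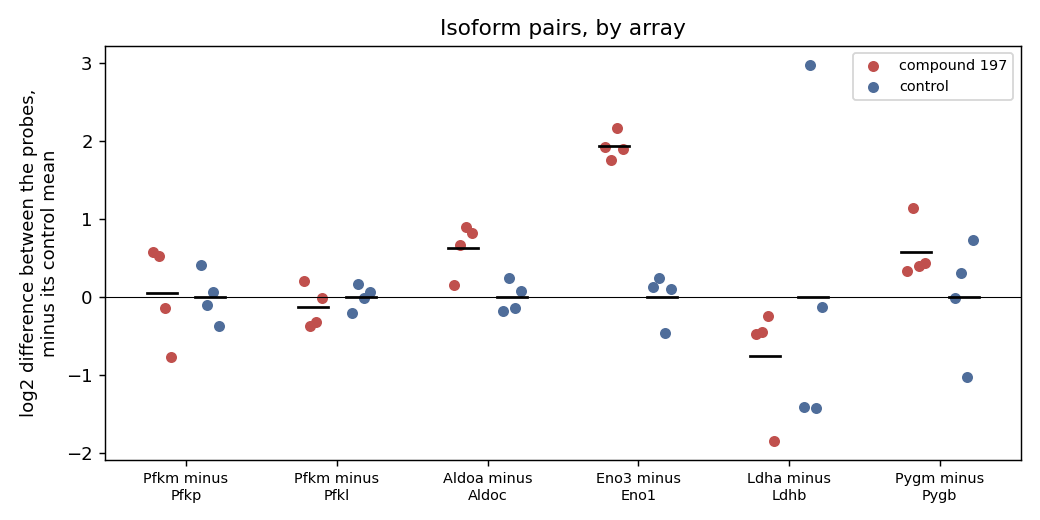
Log2 difference between the probes of 6 isoform pairs on each array, minus the mean difference of the control arrays, with compound 197 (red) left of control (blue) and bars at the group means. All treated arrays lie above all controls for Eno3 minus Eno1 alone, where the means differ by 1.93. Eno1 was not above background on any control array, so that difference is not a measured size.

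Beyond these members, 66 other genes of sugar and glycogen metabolism were listed, of which 47 had a named probe and 35 were tested. Of those 35 genes, 5 rose, 7 fell and 23 did not pass, and their median change was -0.10. Over all tested probes 16.3% rose and 24.2% fell, with a median of -0.18. The split was 10 rises to 0 falls with median scaling and 7 rises to 3 falls with cyclic loess, beside 23.2% and 1.91% of all tested probes with median scaling and 19.4% and 8.02% with cyclic loess. Adpgk, an ADP-dependent glucokinase, fell by 0.71 ± 0.12 (adjusted p = 0.00150), and Pck2, the mitochondrial carboxykinase of gluconeogenesis, fell by 0.63 ± 0.10 (adjusted p = 0.00170). Ppp1ca, a catalytic subunit of the phosphatase that activates glycogen synthase, fell by 0.60 ± 0.11. These 3 were the falls still called with cyclic loess, at -0.52, -0.48 and -0.37, and with median scaling they were -0.10, -0.16 and 0.01. Rpia and Pgm2, which act on pentose phosphates, fell by 0.51 ± 0.096 and 0.48 ± 0.098. Ldhd, which oxidises D-lactate, fell by 0.69 ± 0.21, and Gaa, the lysosomal enzyme that degrades glycogen, fell by 0.34 ± 0.096.

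Bsg, the partner that carries lactate transporters to the cell surface, rose by 0.43 ± 0.12 (adjusted p = 0.0180). The other 4 rises, named after their values were seen, were Gsk3b, the kinase that inhibits glycogen synthase (0.58 ± 0.18), Stbd1, which binds glycogen and was detected on 1 control array (0.44 ± 0.13), the glucose 6-phosphatase gene G6pc3 (0.35 ± 0.12) and the aldose epimerase gene Galm (0.33 ± 0.11). All 5 were also called higher with cyclic loess and with median scaling. The count of rises among these genes was 1 without compound 197 replicate 2 or 3 or control replicate 1 or 3, and 2 without compound 197 replicate 1 or 4. The glucose transporter gene of muscle, Slc2a4, had a change of -0.05 ± 0.10, and the lactate exporter gene Slc16a3 had a change of 0.13 ± 0.093. With median scaling Slc16a3 was called higher (0.67, limma adjusted p = 0.0326). Hif1a, a regulator of glycolytic genes, had a change of -0.04 ± 0.18.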

How the data were processed

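Gene expression was measured in thigh muscle of 4 rats fed compound 197 and 4 control rats on 1-colour Illumina rat beadchips with biotin-labelled cRNA, per the labels' protocols. The authors deposited non-normalized and normalized intensity tables, with a detection p-value beside each intensity, per the file headers. As for the authors' normalization and software, neither is given in the sources used here. All columns of the normalized table hold the same sorted values, and the series matrix equals that table in every cell.

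Non-normalized intensities were corrected with limma's neqc (offset 16, background inferred from the detection p-values), quantile normalized and put on the log2 scale. Probes with a detection p under 0.05 on at least 4 arrays, 9873 of 22523, were compared with lmFit and eBayes (limma 3.58.1, R 4.3.3), with Benjamini-Hochberg adjustment over all of them. Probes were named through the platform annotation, in which 13793 have 1 symbol, and 13752 symbols were updated by Entrez number from a RefSeq table. Isoform pairs were compared with exact permutation tests. The fit was tested on simulated data. Every member was to be named, and from the other pathway genes up to 8 past the threshold with the smallest adjusted p. Tnni2, Tnnt1, Myl3, Casq2, Mb, Atp2a2, Fabp4, Adipoq, Cfd, Lipe, Pnpla2, Slc2a4, Slc16a3 and Hif1a were named after their values were seen. The members and lists were chosen with earlier results of these data known. P-values measure the spread between 4 samples a group. Figures were drawn with matplotlib 3.10.9.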

Additional observations from a re-analysis of the deposited data

Results flagged for a closer look

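Among 66 sets of 4 arrays (33 tested member probes in each group), 6 had 1 array far from the other 3, where chance gives about 1 in 20. Pgk1 read 14.94 on control replicate 2, and the other controls lay at 14.76 to 14.78. Eno3 was 9.93 on control replicate 3, below 10.54 to 10.67 on the other controls. Ldhb stood at 11.80 on compound 197 replicate 4 and at 10.49 to 10.64 on the other treated arrays. Fbp2 was high on that array too, at 11.30 against 10.11 to 10.20. On compound 197 replicate 1, Gpd2 read 10.32 and Pgm1 14.20, above 10.20 to 10.22 and 13.94 to 13.98 on the other treated arrays.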

How the results depend on the processing

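The count of 5 member probes higher and 4 lower was within 1.5 times with no background correction, with the deposited normalized table, with each array centred on its median tested probe, with no filter, with detection on all 8 arrays or at a detection p under 0.01, with the brightest probe per gene and with trend and robust settings of eBayes. Without a filter Gpi and Gbe1 did not pass. Scaling changed the counts: 11 higher and 0 lower with median scaling, 8 and 0 with cyclic loess, and 0 lower relative to the median change, an alternative added after seeing the data. The other pathway genes gave 10 higher and 0 lower with median scaling, 3 lower with cyclic loess and 8 higher relative to the median change. With the replicate number as a block, 2 members were lower and 0 other pathway genes higher. Gpi, Pfkm, Gpd2 and Gbe1 no longer passed under the block and Fbp2 did. Same-numbered arrays did not vary together (correlations of -0.13 to -0.04), and no array correlated best with its own number. Leaving out 1 array with the tested probes kept gave 4 to 6 members higher, 2 to 4 lower, 1 to 4 other pathway genes higher, 5 to 8 lower and 1 to 2 isoform pairs under 0.05, with 2 pairs without compound 197 replicate 1 or control replicate 4. There were 2 falls among members without compound 197 replicate 1, 3 or 4 or control replicate 3. A slide block could not be fitted, as no slide is named. Values that changed sign with median scaling were Hk2 0.39, Pfkm 0.31, Pfkl 0.45, Pfkp 0.29, Pfkfb1 0.20, Aldoa (brighter probe) 0.58, Pgk1 0.46, Gpd2 0.15, Pgm1 0.35, Pygb 0.26, Phka1 0.32, Phkb 0.18, Phkg1 0.22 and Fbp2 0.18. With cyclic loess they were Hk2 0.0087, Pfkl 0.025, Aldoa (brighter probe) 0.14 and Pgk1 0.038, and relative to the median change Aldoa (brighter probe) 0.12 and Pgk1 0.0050. The pair Pfkm minus Pfkp was -0.10 without background correction, -0.075 with the deposited table and -0.13 to 0.32 on leaving out 1 array, and Ldha minus Ldhb ranged from -1.23 to 0.23. Leave-one-out ranges of members that changed sign were -0.019 to 0.074 for Tpi1, -0.019 to 0.21 for Pgam2, -0.063 to 0.079 for Eno2, -0.078 to 0.63 for Pfkfb3, -0.040 to 0.11 for Ldha and -0.12 to 1.30 for Ldhb. The cause of these shifts was not tested. Levels near background limit Eno1, Aldoc, Eno2, Pfkfb3 and Pfkfb4.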
